A study of Lactuca sativa with 12 samples.

Results

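The genes described here are those whose transcript level in aerial tissue of lettuce was low at every cold time-point examined. They were chosen by the measured means themselves, so that a gene was taken when its mean level plus 1 CPM (CPM being reads of the gene per 1000000 reads of the library) was at most 0.5 times that of warm-grown plants after 4 h, after 24 h and after 7 d at low temperature. Of 23933 genes in the table, 70 met the 3 ratios, none of them among the 100 genes with the highest level in warm-grown plants. Small auxin-induced genes were left out by name, which removed 2 of the 70 and left 68 members.

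Plants of the lettuce (Lactuca sativa) cultivar Salinas, 18 days old at the start, were sampled as aerial tissue, with 3 biological replicates per time-point and 12 libraries in all. The 0 h plants were warm-grown at 20 °C with 350 to 400 µmol m−2 s−1 of light, and the 4 h, 24 h and 7 d plants had been moved to 4 °C with about 100 µmol m−2 s−1. The authors give 16 h of light per day for growth at 20 °C and no separate day length for the cold. Temperature and light changed together, and 7 d plants were also older, so these effects cannot be told apart. The time of day of sampling, not given in the sources used here, may also have differed between time-points. No source used here says whether the replicates were separate plants or pools, so the spread between them may be partly technical.

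Cold slows growth in plants and triggers cold acclimation, the gain in freezing tolerance after a mild cold exposure. Much is known of the transcription factors and protective proteins that are induced, while lower transcript levels in the cold are best known for genes of growth, of hormone signalling and of photosynthesis. The members with a description include genes of hormone signalling, of the choice of proteins for degradation, of protein folding, of transport and of lipid metabolism. In RNA from whole tissue, fewer cells of a type and less RNA per cell cannot be told apart.

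Between 18609189 and 25952306 reads lay on the genes of each library, so that 3 reads, taken as the floor, were worth 0.116 to 0.161 CPM, counting error only. Replicates of a time-point correlated across genes with r of 0.990 to 0.995, except for the pairs with replicate 3 of 0 h, at 0.976 and 0.979. All 8 leaf marker genes, small subunits of Rubisco and light-harvesting proteins, had reads in all 12 libraries and summed to 11153 to 41129 CPM. CPM values are not corrected for gene length, so levels are compared between time-points within a gene and not between genes.

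The choice of members rests on the means at 0 h and in the cold, and the values against 0 h are therefore a description without a test. Means at 0 h ran from 2.72 to 796 CPM with a median of 21.3 CPM. They reached 10 CPM in 52 members and 100 CPM in 9, and were below 5 CPM in 6. All 68 members passed the filter on low values, at least 0.5 CPM in 2 or more libraries, which 22306 genes passed. The median ratio to 0 h was 0.416 at 4 h, 0.291 at 24 h and 0.326 at 7 d in the members, against 1.01, 1.02 and 1.10 in all genes tested. A ratio of at most 0.25 was seen in 3 members at 4 h, 25 at 24 h and 18 at 7 d.

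Meeting the ratio at a single time was more common than at all 3, with 161 genes at 4 h, 841 at 24 h and 795 at 7 d, or 0.722%, 3.77% and 3.56% of the genes tested. Fewest genes thus met it at 4 h. A gene was called when limma gave an adjusted p (Benjamini-Hochberg) up to 0.01 and a change of 2-fold or more. Lower calls against 0 h numbered 60 members for 4 h, 63 for 24 h and 64 for 7 d. Over all genes tested the shares called lower were 0.592%, 3.55% and 3.41%, and nothing is read from the members' counts because the rule used the same contrasts. Every cold library lay below every 0 h library in 62 members, and in 5.35% of all genes tested.

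Summed over the 68 members, the 0 h libraries held 3710, 4456 and 4334 CPM. The 4 h libraries held 1611, 1800 and 1503 CPM, the 24 h libraries 651, 738 and 787 CPM, and the 7 d libraries 919, 1042 and 1117 CPM. The sum was thus lowest in all 3 libraries at 24 h and did not return at 7 d to the level of 4 h. It is weighted to the members with the highest CPM, such as Ls5g135361.2 and Ls4g92001.1, with 0 h means of 796 and 684 CPM. The median over members was 18.1, 20.7 and 20.3 CPM in the 0 h libraries, 7.97, 8.32 and 6.74 CPM at 4 h, 4.49, 4.75 and 5.83 CPM at 24 h, and 5.13, 5.26 and 6.35 CPM at 7 d. It was below 4 h in all libraries of both later times, and the 24 h and 7 d libraries overlapped.

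**Figure D1:**
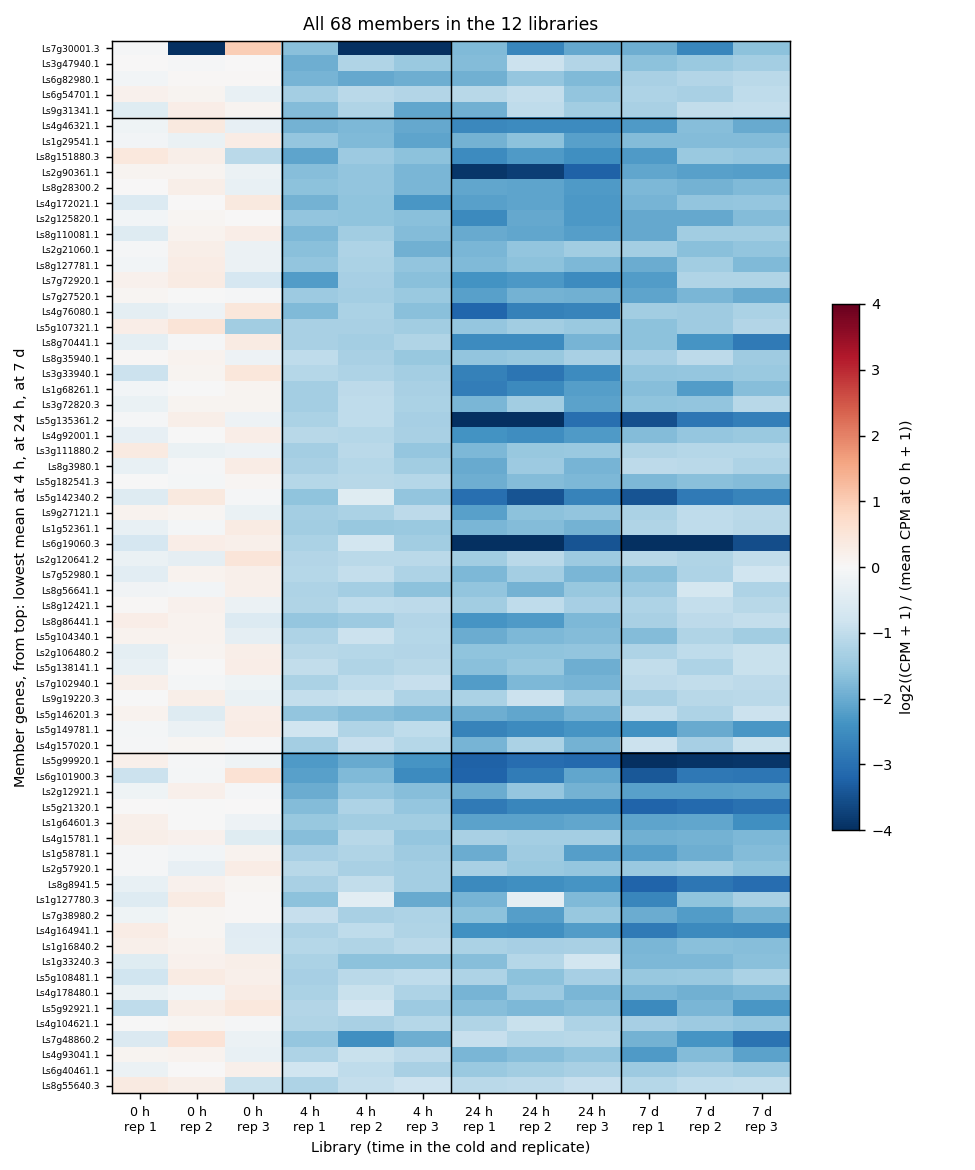
Level of each of the 68 members (rows) in the 12 libraries (columns), as the log2 ratio of CPM plus 1 to the gene's 0 h mean plus 1, with colours ending at -4 and 4. The 3 blocks of rows hold the 5 members lowest at 4 h, the 41 lowest at 24 h and the 22 lowest at 7 d, and 1 member, Ls7g30001.3, is lower in replicate 2 of 0 h than in all its 24 h and 7 d libraries.

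Most of the 68 genes have no name here. A description was at hand for 17, 5 were listed without one, and 46 were not in the part of the authors' gene list used here, which covers only some linkage groups. The authors chose that list from these same samples, so it is no independent view of what the members do.

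Of the members described as hormone-related, Ls2g90361.1 is described as Gibberellin-regulated protein 6, a member of a family of small cysteine-rich peptides. Its level was 366, 365 and 289.9 CPM at 0 h, 103, 114 and 95.8 CPM at 4 h, 22.1, 24.0 and 35.1 CPM at 24 h, and 79.7, 74.3 and 73.9 CPM at 7 d. The groups did not overlap at any pair of times, with the deepest point at 24 h, when the mean was 7.95% of that at 0 h. At 7 d it was 22.3%.

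Ls2g106480.2 is described as Ethylene-insensitive protein 2, the membrane protein through which the ethylene signal passes to the nucleus in Arabidopsis. It had 82.2, 116 and 127 CPM at 0 h, 49.2, 49.0 and 47.2 CPM at 4 h, 34.5, 35.1 and 36.0 CPM at 24 h, and 45.6, 53.2 and 57.5 CPM at 7 d. The cold libraries were all below the 0 h libraries, and the 4 h and 7 d libraries overlapped. A second gene with the same description, Ls1g53261.1, had ratios of 0.468 at 4 h and 0.435 at 24 h but 0.622 at 7 d, and so is no member. Ls2g106480.2 itself met the rule by a small margin, with a ratio of 0.485 at 7 d, and did not meet it without replicate 2 or without replicate 3 of 0 h or without replicate 1 of 7 d.

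Ls2g125820.1 is described as EARLY RESPONSIVE TO DEHYDRATION 15, a small protein that in Arabidopsis dampens responses to abscisic acid. Its levels were 207, 234 and 226 CPM at 0 h, 74.2, 72.7 and 69.7 CPM at 4 h, 37.3, 53.3 and 44.6 CPM at 24 h, and 53.0, 52.9 and 66.0 CPM at 7 d. The 0 h libraries were close to each other and far above the rest, and 24 h lay below 4 h in each library. The described member nearest to light and auxin signalling is Ls3g47940.1, Transcription factor PAR2, which in Arabidopsis restrains growth in shade. It had 23.5, 22.5 and 23.2 CPM at 0 h, 5.28, 9.49 and 7.63 CPM at 4 h, 6.24, 12.3 and 9.57 CPM at 24 h, and 6.79, 7.51 and 8.33 CPM at 7 d, so that the 3 cold times overlapped. It is 1 of the 5 members whose lowest mean was at 4 h.

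Protein degradation is represented by 4 described members. F-box proteins choose the proteins to be marked with ubiquitin, and kelch-type F-box proteins of the same names in Arabidopsis act on regulators of cytokinin signalling and on an enzyme of phenylpropanoid synthesis. The gene described as F-box/kelch-repeat protein At2g44130, Ls1g58781.1, had 106, 103 and 123 CPM at 0 h, 43.5, 47.0 and 40.3 CPM at 4 h, 27.4, 40.4 and 23.4 CPM at 24 h, and 23.4, 27.8 and 32.2 CPM at 7 d. The other kelch gene, Ls2g57920.1 (At1g15670), had 23.1, 18.7 and 29.8 CPM at 0 h, 10.6, 9.06 and 8.71 CPM at 4 h, 9.19, 7.89 and 7.58 CPM at 24 h, and 7.96, 8.48 and 7.11 CPM at 7 d. Both were below their 0 h libraries throughout, and in both the 24 h libraries overlapped with those of 4 h and of 7 d. Ls1g64601.3, described as the E3 ubiquitin-protein ligase RZFP34, had 12.5, 10.6 and 9.28 CPM at 0 h, 3.17, 3.52 and 3.49 CPM at 4 h, 1.65, 1.66 and 1.80 CPM at 24 h, and 1.71, 1.81 and 1.16 CPM at 7 d. Here 4 h stood apart from both later times. The fourth, Ls3g111880.2, an F-box protein with leucine-rich repeats, ranged from 4.90 to 8.05 CPM at 0 h and from 1.03 to 2.35 CPM in the cold.

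A protein-folding pair shares the description Chaperone protein dnaJ 11, chloroplastic. J-proteins deliver unfolded proteins to Hsp70 chaperones. Ls3g72820.3 had 86.4, 112 and 113 CPM at 0 h, 40.1, 51.3 and 42.5 CPM at 4 h, 28.2, 38.9 and 22.9 CPM at 24 h, and 33.2, 33.9 and 47.6 CPM at 7 d. Ls2g12921.1 had 42.7, 55.6 and 47.0 CPM at 0 h, 11.5, 15.9 and 14.3 CPM at 4 h, 11.6, 15.9 and 12.4 CPM at 24 h, and 9.94, 10.1 and 10.3 CPM at 7 d. In both, every cold library was below every 0 h library. Ls2g12921.1 lies in a run of 4 genes with this description within 6 genes of the table on linkage group 2, of which it alone is a member, and their sequences were not compared here, so whether reads were shared among copies is not known and its level is uncertain. Of the other 3 of the run, Ls2g13040.1 and Ls2g13401.3 had 0 h means of 10.2 and 12.7 CPM and ratios of 0.578 and 0.855 at 4 h. The remaining gene, Ls2g13341.1, had a 0 h mean of 0.389 CPM, too low for the rule to be met with 1 CPM added.

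The transporters among the described members were Ls1g52361.1, ABC transporter B family member 1, which moves auxin out of cells in Arabidopsis, and Ls4g15781.1, Protein DETOXIFICATION 12, of a family of efflux carriers. The first had 39.2, 45.7 and 60.5 CPM at 0 h, 17.8, 16.4 and 16.6 CPM at 4 h, 12.9, 13.8 and 12.2 CPM at 24 h, and 20.6, 23.4 and 21.8 CPM at 7 d. All 24 h libraries were below those of 4 h, and all 7 d libraries were above both. Protein DETOXIFICATION 12 had 4.82, 4.55 and 2.57 CPM at 0 h, 0.528, 1.33 and 0.699 CPM at 4 h, 1.03, 0.951 and 0.947 CPM at 24 h, and 0.321, 0.347 and 0.422 CPM at 7 d. Its 7 d libraries were the lowest, and 4 h and 24 h overlapped.

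Membrane lipids have 2 described members. Ls1g16840.2, the Sec14-like transfer protein SFH6, had 89.7, 84.5 and 57.9 CPM at 0 h, 34.8, 32.7 and 36.1 CPM at 4 h, 31.7, 30.0 and 30.7 CPM at 24 h, and 20.8, 23.6 and 23.1 CPM at 7 d. The libraries of each later time lay below those of the time before. The step from 4 h to 24 h was small, with a log2 fold change of -0.16 ± 0.14 (SE, limma adjusted p = 0.425). Ls1g33240.3 carries the description palmitoyl-monogalactosyldiacylglycerol delta-7 desaturase, an enzyme of chloroplast lipids. It had 7.84, 12.8 and 13.5 CPM at 0 h, 4.17, 2.99 and 3.01 CPM at 4 h, 2.79, 4.61 and 6.44 CPM at 24 h, and 2.57, 2.58 and 2.90 CPM at 7 d, with 4 h and 24 h overlapping. Genes with the same descriptions did not all do likewise. A second SFH6 gene, Ls4g117200.1, was called higher at 24 h, with a ratio of 7.44, and the desaturase gene Ls1g34480.2 with a ratio of 2.34, by limma with Benjamini-Hochberg adjustment (adjusted p = 2.31e-09 and 4.85e-06).

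Of the other described members, Ls3g33940.1, Berberine bridge enzyme-like 13, belongs to a family of oxidoreductases of which some act on lignin building blocks in Arabidopsis. It had 101, 201 and 251 CPM at 0 h, 83.7, 77.2 and 72.0 CPM at 4 h, 27.2, 23.3 and 31.5 CPM at 24 h, and 61.0, 62.7 and 64.8 CPM at 7 d. Replicate 1 of 0 h was close to the 4 h libraries. The libraries of the cold times did not overlap, but only those of 24 h stood well apart. Between 7 d and 4 h the log2 fold change was -0.30 ± 0.25 (SE, limma adjusted p = 0.342). Ls1g127780.3, Stem-specific protein TSJT1, had 18.5, 33.9 and 27.2 CPM at 0 h, 7.81, 19.5 and 5.86 CPM at 4 h, 6.55, 19.9 and 7.01 CPM at 24 h, and 3.53, 7.98 and 10.2 CPM at 7 d. Replicate 2 of 4 h and replicate 2 of 24 h overlapped with 0 h, and the gene did not meet the rule without replicate 2 of 0 h, replicate 3 of 4 h, or replicate 1 or 3 of 24 h. Ls2g120641.2, an uncharacterized protein, had 19.9 to 35.8 CPM at 0 h and 8.62 to 12.3 CPM in the cold.

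**Figure D2:**
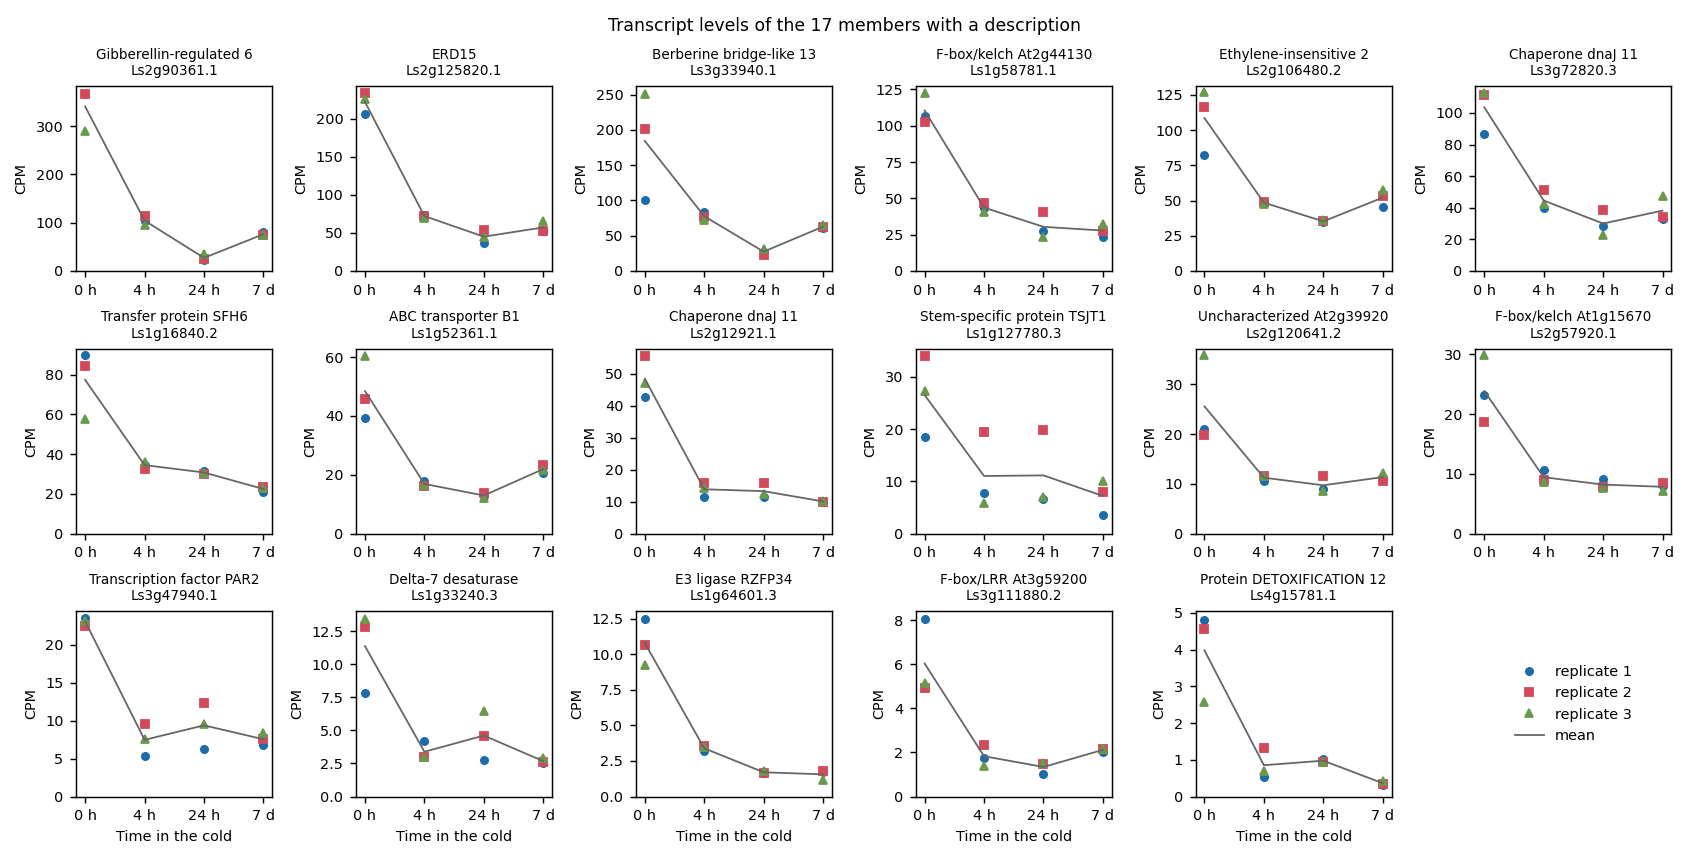
CPM of the 17 members with a description, one panel a gene with its own axis starting at 0, against the time in the cold. Points are the 3 replicates and the line joins the means; in 16 of the 17 genes all cold points lie below all 0 h points, the exception being the stem-specific protein TSJT1.

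Listed genes of the families to which these members belong were called in both directions. Among 73 listed genes of protein turnover that were tested, the members included, 10 were higher and 5 lower after 4 h, while 24 h had 14 higher with 19 lower and 7 d had 7 higher with 12 lower. Among 65 transporter genes, 15 were higher and 3 lower after 4 h, while 24 h had 21 higher with 16 lower and 7 d had 14 higher with 22 lower. Among 21 chaperone genes, 1 was higher and 2 lower after 4 h, while 24 h had 4 higher with 5 lower and 7 d had 1 higher with 8 lower. Of 17 ethylene genes, 5 were higher and 2 lower after 4 h, while 24 h had 3 higher with 5 lower and 7 d had 2 higher with 3 lower. Members made up 4 of the turnover, 2 of the transporter, 2 of the chaperone and 1 of the ethylene genes. These members were called lower at every cold time. The lower counts, above all those after 4 h, thus partly restate the rule. Over all genes tested, calls of a higher level made up 5.15% for 4 h, 5.99% for 24 h and 6.81% for 7 d, and the listed genes are those the authors had selected as cold-regulated in these samples.

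The member with the highest CPM has no description. Ls5g135361.2 had 766, 927 and 695 CPM at 0 h, 333, 392 and 315 CPM at 4 h, 40.6, 42.7 and 98.5 CPM at 24 h, and 69.1, 106 and 118 CPM at 7 d. The 24 h mean was 7.61% of that at 0 h, and the 24 h and 7 d libraries overlapped through replicate 3 of 24 h. Ls6g19060.3 behaved alike, with 189, 360.5 and 347 CPM at 0 h, 124, 179 and 113 CPM at 4 h, 4.28, 4.56 and 26.3 CPM at 24 h, and 8.07, 15.6 and 24.9 CPM at 7 d. Replicate 2 of 4 h was only just below the lowest 0 h library, and replicate 3 of 24 h was again higher than the other 2. Ls4g92001.1 had 546, 683 and 824 CPM at 0 h, 317, 307 and 277 CPM at 4 h, 128, 120 and 142 CPM at 24 h, and 205, 236 and 244 CPM at 7 d, with no overlap between any times.

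The members with the smallest largest ratio, that is, low at each of the 3 times, start with Ls5g99920.1. It had 67.7, 56.3 and 51.7 CPM at 0 h, 11.5, 13.6 and 10.7 CPM at 4 h, 5.32, 6.18 and 5.87 CPM at 24 h, and 2.41, 2.97 and 3.0 CPM at 7 d. Its level declined stepwise with no overlap, to 4.77% of the 0 h mean at 7 d. Ls6g101900.3 had 16.1, 28.3 and 45.3 CPM at 0 h and 1.92 to 8.10 CPM in the cold. Ls4g46321.1 had 11.2, 17.2 and 9.90 CPM at 0 h, 2.74, 2.99 and 2.31 CPM at 4 h, 1.29, 1.43 and 1.42 CPM at 24 h, and 1.87, 3.28 and 2.42 CPM at 7 d. The cold libraries of both were clear of the 0 h libraries, although the 0 h libraries of Ls6g101900.3 differed widely among themselves. Ls8g151880.3 had 67.6, 58.6 and 22.8 CPM at 0 h and 7.79 to 17.5 CPM in the cold, and Ls1g29541.1 had 4.75 to 7.47 CPM at 0 h and 0.521 to 1.37 CPM in the cold.

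One gene of this kind varied widely between replicates. Ls7g30001.3 had 33.4, 0.940 and 68.6 CPM at 0 h, 10.1, 0.640 and 0 CPM at 4 h, 9.50, 4.85 and 7.48 CPM at 24 h, and 8.07, 4.82 and 10.4 CPM at 7 d. Replicate 2 of 0 h lay below all 24 h and 7 d libraries, and the coefficient of variation at 0 h, 98.7%, was the highest among members. A further 5 members had a cold library that was not below every 0 h library, chosen for mention after their values were seen: Ls1g127780.3, Ls5g142340.2, Ls5g92921.1, Ls5g107321.1 and Ls8g55640.3. In Ls5g107321.1 this came from replicate 3 of 0 h, with 0.619 CPM against 4.10 and 5.10 CPM in the other 2 replicates, and in Ls8g55640.3 likewise, with 1.00 CPM against 3.74 and 3.42 CPM. In Ls5g92921.1 it came from replicate 1 of 0 h, with 3.79 CPM against 10.3 and 11.9 CPM, and in Ls5g142340.2 from replicate 2 of 4 h, with 30.4 CPM, just above the lowest 0 h library at 30.0 CPM. The median coefficient of variation at 0 h was 21.6%, and it was above 40% in 9 members.

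One member was at the floor of detection. Ls5g21320.1, singled out after its values were seen, had 8.20, 8.07 and 8.33 CPM at 0 h, 1.79, 2.93 and 2.15 CPM at 4 h, 0.310, 0.523 and 0.521 CPM at 24 h, and 0, 0.0771 and 0.158 CPM at 7 d, which were 0, 2 and 3 reads. Against the 3-read floor of the 7 d libraries it was at least 51.1-fold lower at 7 d than at 0 h. It had the tightest 0 h replicates of all members, with a coefficient of variation of 1.60%.

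The rule set an upper limit on each cold level and no lower limit. It thus did not fix the order of the cold levels, but it left less room for a higher than for a lower level after 4 h. The lowest mean was at 4 h in 5 members, at 24 h in 41 and at 7 d in 22. The mean at 24 h was below that at 4 h in 58 members, the mean at 7 d below that at 4 h in 44, and the mean at 7 d below that at 24 h in 23. A level that declined at each step was seen in 17, and 22 were lowest at 24 h with 7 d still below 4 h. These orders were not counted over all genes tested. They rest on the cold means that the rule used, so they are a description of the members only. At 4 h the members had reached a median of 70.7% of their deepest log2 difference from 0 h, with a range of 24.2 to 100%. At least 90% of it had been reached in 8 members and less than 50% in 11. The rule itself required a ratio of at most 0.5 at 4 h, which keeps these shares from being small. They were not computed over all genes tested, and nothing is read from them.

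Whether the cold levels differed among themselves was tested in the same limma fit over all genes, with Benjamini-Hochberg adjustment over all genes tested and fold changes on the log2(CPM + 1) scale, which understates those of genes with few reads. Since every cold ratio is at most 0.5, a mean plus 1 CPM can be 2-fold or more above that of an earlier cold time only where the earlier ratio is at most 0.25, which held for 3 members at 4 h and 25 at 24 h. The split between higher and lower calls, the medians and the counts without overlap are therefore shaped by the choice of members and are given as a description. Between 24 h and 4 h, 12 members (17.6%) were called lower and 0 higher, and the shares of all genes tested were 3.93% and 2.50%. At an unadjusted p under 0.05 in limma, 36 members were lower and 1 higher. Genes at this limit were not counted over all genes tested, so nothing is read from that split. At an adjusted p of at most 0.01 and any fold, 21 members were lower and 0 higher, and over all genes these shares were 11.7% and 9.32%. The median log2 difference was -0.53 in the members and -0.01 over all genes tested. The 3 libraries of 24 h lay below the 3 of 4 h in 41 members, and above in 1, where the shares over all genes tested were 27.2% and 27.0%. On the recovered reads, edgeR's quasi-likelihood test called 15 lower and 0 higher, of all genes tested 5.63% and 3.13%. DESeq2 called 15 members lower and 0 higher, where over all genes tested it called 1319 lower and 711 higher.

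Between 24 h and 4 h the members differing most were Ls6g19060.3, at -3.88 ± 0.55 on the log2 scale (SE, limma adjusted p = 0.000201), and Ls5g135361.2, with -2.61 ± 0.29 (adjusted p = 3.20e-05). The gibberellin-regulated peptide gene Ls2g90361.1 followed, with -1.93 ± 0.16 (adjusted p = 3.29e-06), and then Ls5g142340.2, with -1.83 ± 0.33 (adjusted p = 0.00100). For the last, levels were 4.39, 3.0 and 5.92 CPM at 24 h, against 13.5, 30.4 and 13.9 CPM at 4 h, so that replicate 2 of 4 h was far above the other 2. Also called lower were Berberine bridge enzyme-like 13 (Ls3g33940.1), Ls4g92001.1, Ls4g76080.1, Ls1g68261.1, Ls4g164941.1, Ls5g149781.1, Ls5g21320.1 and Ls8g8941.5, with log2 fold changes of -1.17 to -1.49. Ls4g164941.1 had 3.87, 3.71 and 4.50 CPM at 24 h, against 9.98, 11.9 and 10.3 CPM at 4 h, and Ls5g149781.1 had 0.774, 0.998 and 1.23 CPM at 24 h, against 5.49, 3.89 and 4.57 CPM at 4 h. Ls1g68261.1, at 0.310, 0.523 and 0.947 CPM at 24 h, against 2.48, 3.31 and 2.63 CPM at 4 h, rests on few reads. In these 3 genes no library of 24 h reached the lowest of 4 h.

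Between 7 d and 24 h the members were split, with 4 called higher and 1 lower, and the shares over all genes tested were 1.17% and 2.52%. The median log2 difference was 0.15 in the members and 0.11 over all genes tested, and with TMM scaling 0.06 and 0.01. At any fold 12 members were higher and 3 lower, against shares of 13.4% and 7.81%. The 3 libraries of 7 d lay above the 3 of 24 h in 20 members and below in 10, where the shares over all genes tested were 34.4% and 18.3%. The edgeR test called 4 higher and 4 lower, of all genes tested 1.38% and 4.65%. The count of 5 in limma became 2 without replicate 1 of 24 h or replicate 3 of 7 d, and 3 without replicate 2 of 24 h or replicate 2 of 7 d.

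Partial return at 7 d was seen in the gibberellin-regulated peptide gene Ls2g90361.1, with 79.7, 74.3 and 73.9 CPM at 7 d, against 22.1, 24.0 and 35.1 CPM at 24 h, and a log2 fold change of 1.48 ± 0.16 (SE, limma adjusted p = 3.55e-05). Ls4g76080.1 had 9.46, 9.29 and 10.5 CPM at 7 d, against 2.06, 3.28 and 3.46 CPM at 24 h, and a log2 fold change of 1.47 ± 0.21 (adjusted p = 0.000285). In both, the libraries of the pair did not overlap, and both stayed below every 0 h library at 7 d. Berberine bridge enzyme-like 13 (Ls3g33940.1) followed with 1.18 ± 0.25 (adjusted p = 0.00324) and Ls8g86441.1 with 1.05 ± 0.21 (adjusted p = 0.00253). For Ls8g86441.1 the levels were 3.10, 3.93 and 4.27 CPM at 7 d, against 0.981, 1.09 and 1.89 CPM at 24 h, without overlap. The call of Ls3g33940.1 was lost without replicate 1 or 2 of 24 h and without each replicate of 7 d, with limma adjusted p of 0.0112 to 0.0165, and with RLE scaling (adjusted p = 0.0104). That of Ls8g86441.1 was lost without replicate 1 or 2 of 24 h and without replicate 2 or 3 of 7 d, with adjusted p of 0.0109 to 0.0136, and with TMM or RLE scaling, with log2 fold changes of 0.96 and 0.95. The member called lower was Ls7g48860.2, with 2.83, 1.77 and 0.843 CPM at 7 d, against 6.55, 5.52 and 5.59 CPM at 24 h, and a log2 fold change of -1.35 ± 0.31 (adjusted p = 0.00544). Its call was lost without each replicate of 24 h and without replicate 2 or 3 of 7 d, with limma adjusted p of 0.0160 to 0.0266, and also with a pseudocount of 0.1 CPM (adjusted p = 0.0114) and with no filter (adjusted p = 0.0126). The ABC transporter gene Ls1g52361.1 was higher at 7 d with an adjusted p of 0.00172 in limma, by 0.71 ± 0.14, which is under the fold asked for.

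Between 7 d and 4 h, 8 members (11.8%) were called lower and 0 higher, and the shares over all genes tested were 6.21% and 4.14%. As above, with 1 CPM added, the 4 h ratio left room for a mean 2-fold or more higher in only 3 members, and nothing is read from the split. The edgeR and DESeq2 tests do not use that scale and are not held to this limit. The median log2 difference was -0.23 in the members and 0.10 over all genes tested, and with TMM scaling -0.33 and 0.01. At an unadjusted p under 0.05 in limma, 27 members were lower and 4 higher, which was not counted over all genes tested. At an adjusted p of at most 0.01 and any fold, 18 members were lower and 2 higher, against shares of 14.9% and 22.0%. The libraries of 7 d lay below those of 4 h in 30 members and above in 3, where the shares over all genes tested were 25.4% and 38.3%. The edgeR test called 15 lower and 1 higher, of all genes tested 10.1% and 4.29%. DESeq2 called 14 members lower and 1 higher, where over all genes tested it called 2386 lower and 932 higher.

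The largest differences between 7 d and 4 h were in Ls6g19060.3, at -3.12 ± 0.55 on the log2 scale (SE, limma adjusted p = 0.000524), and Ls5g135361.2, at -1.85 ± 0.29 (adjusted p = 0.000224). Ls8g8941.5 had 3.53, 4.59 and 4.00 CPM at 7 d, against 15.8, 19.9 and 15.2 CPM at 4 h, and a log2 fold change of -1.83 ± 0.14 (adjusted p = 1.30e-06). Ls5g99920.1, above, differed by -1.77 ± 0.13 (adjusted p = 7.24e-07). In these genes the level at 7 d was thus below that at 4 h in every library.

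Across the 3 contrasts, 15 members (22.1%) were called in 1 or more, where 14.0% of all genes tested were. The rule used the cold means and left out genes with low 0 h levels, so nothing is read from these shares. Another 18 members differed in 1 or more contrasts at an adjusted p of at most 0.01 but by less than a 2-fold change, and 35 differed in none. That these 35 missed the threshold does not show that their cold levels were equal. Among the described members, ERD15 (Ls2g125820.1) was lower at 24 h than at 4 h by a log2 fold change of -0.68 ± 0.13 (limma adjusted p = 0.00179), RZFP34 (Ls1g64601.3) by -0.70 ± 0.12 (adjusted p = 0.000981), and SFH6 (Ls1g16840.2) was lower at 7 d than at 4 h by -0.60 ± 0.14 (adjusted p = 0.00383).

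**Figure D3:**
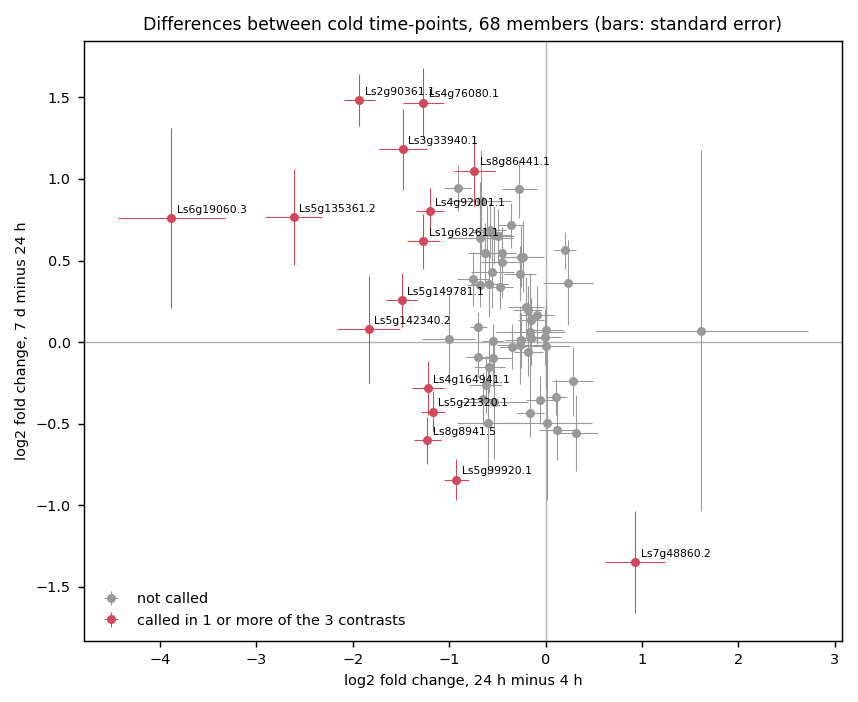
Log2 fold change between 24 h and 4 h (horizontal) and between 7 d and 24 h (vertical) for the 68 members, from the limma fit, with standard errors as bars. Red points are the 15 members called in 1 or more of the 3 cold contrasts. All 12 called between 24 h and 4 h lie left of 0, where the rule left little room for a call to the right. Both axes share the 24 h libraries, so their slant is no result.

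The members were spread over the genome. Linkage groups 1 to 9 held 8, 7, 4, 10, 12, 5, 7, 12 and 3 of them, and no pair lay within 10 genes of each other in the table's numbering. The sequence of their promoters was not analysed here.

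Several members lie close to the limit of the rule. Just inside it were Ls4g157020.1, Ls8g55640.3 and Ls5g149781.1, whose largest ratios were 0.499, 0.498 and 0.497. Just outside were Ls5g74680.2, a second gene described as TSJT1 (Ls1g125781.1) and Ls5g119080.1, with 0.501, 0.503 and 0.504. The small auxin-induced genes left out by name were Ls3g45581.1 (SAUR22) and Ls2g78820.1 (SAUR50), with 0 h means of 6.26 and 1.61 CPM and largest ratios of 0.344 and 0.464, and Ls3g45220.1 (SAUR19), which missed the limit at 7 d with 0.529.

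Which genes met the limit depended on single libraries. When each library was left out in turn, 59 to 79 genes met the rule. Without replicate 1 of 0 h 60 of the 68 members remained, without replicate 2 of 0 h 54, and without replicate 3 of 0 h, which stood apart, 54 with 23 other genes added. In all 12 settings 37 members met it, among them the gibberellin-regulated peptide gene, ERD15, both kelch F-box genes, RZFP34, SFH6, both dnaJ 11 genes, PAR2 and Protein DETOXIFICATION 12. The 37 also held Ls7g30001.3, whose 0 h replicates differed most, so meeting the rule throughout does not show that replicates were close. The 0 h libraries themselves differed, since 16 members were highest in replicate 1, 24 in replicate 2 and 28 in replicate 3.

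**Figure D4:**
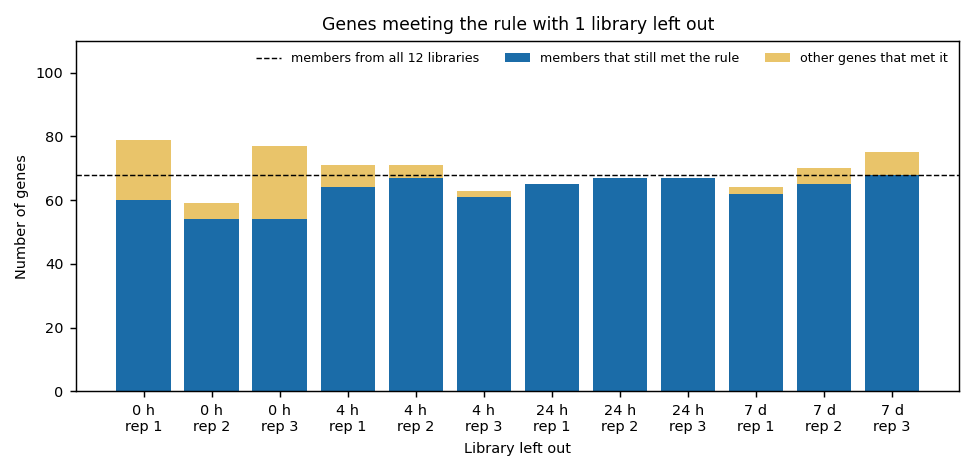
Number of genes that met the rule with each of the 12 libraries left out, split into members (blue) and other genes (yellow), with the 68 members as a dashed line. Members kept ran from 54, without replicate 2 or replicate 3 of 0 h, to 68, without replicate 3 of 7 d.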

How the data were processed

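RNA-seq of lettuce aerial tissue at 4 time-points, with 3 libraries each, was used. The authors used STAR 2.5.2 on the lettuce genome (version 8) and featureCounts, and the deposited values are CPM, a gene's reads per 1000000 reads on the 23933 genes listed, with no further scaling. Every deposited CPM value (100%) came out as a whole number of reads to within 0.01, and these reads were recovered.

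Members and word lists were chosen with earlier results of these data known. Differences were tested with limma 3.58.1 in R 4.3.3 on log2(CPM + 1), a scale that understates changes of low genes, over the 22306 genes with at least 0.5 CPM in 2 or more libraries, in 1 model of all 12 libraries with Benjamini-Hochberg adjustment. A call needed a 2-fold change and an adjusted p up to 0.01. On recovered reads, edgeR 4.0.16 called 1954 genes between 24 h and 4 h, 1346 between 7 d and 24 h and 3222 between 7 d and 4 h. Alternatives were a pseudocount of 0.1, other filters, TMM and RLE scaling, DESeq2 1.42.0, a replicate block, fits of the 2 time-points compared only, and leaving out each library. The steps were tested on simulated data.

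Single genes named were the 10 members with the highest 0 h mean, the 8 with the smallest largest ratio, up to 3 per family, up to 4 called members per cold contrast and direction, and 3 genes on each side of the limit. The other described members and called members, and genes said to be singled out, were added after values were seen. Families were matched by words in the authors' descriptions, and words of up to 4 letters as whole words only.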

Additional observations from a re-analysis of the deposited data

Results flagged for a closer look

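Members whose difference from 0 h changed between cold time-points, by limma's test of that change with Benjamini-Hochberg adjustment, are given here as log2 fold changes, for up to 4 called members per contrast and direction with the largest changes, and no cause was tested. Between 24 h and 4 h, of 12 called lower, these were Ls6g19060.3 (-3.88), Ls5g135361.2 (-2.61), the gibberellin-regulated peptide gene Ls2g90361.1 (-1.93) and Ls5g142340.2 (-1.83). Between 7 d and 24 h, all 5 called were Ls2g90361.1 (1.48), Ls4g76080.1 (1.47), Berberine bridge enzyme-like 13, Ls3g33940.1 (1.18), Ls8g86441.1 (1.05) and Ls7g48860.2 (-1.35). Between 7 d and 4 h, of 8 called lower, these were Ls6g19060.3 (-3.12), Ls5g135361.2 (-1.85), Ls8g8941.5 (-1.83) and Ls5g99920.1 (-1.77).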

How the results depend on the processing

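The count of members called between 24 h and 4 h, 12, stayed within 1.5 times under every alternative run, with 12 to 13 when single libraries were left out. Between 7 d and 24 h the count of 5 became 3 with RLE scaling, 8 in edgeR and 10 in DESeq2, and 2 to 5 with single libraries left out (2 without replicate 1 of 24 h, 2 without replicate 3 of 7 d, and 3 without replicate 2 of 24 h or of 7 d). Between 7 d and 4 h the count of 8 became 16 in edgeR and 15 in DESeq2, and was 8 to 10 with single libraries left out. The number of genes meeting the rule, 68, became 149 with a pseudocount of 0.1 CPM, 20 with a ratio of at most 0.4, 91 with TMM scaling, and 59 to 79 without single libraries. Over all genes tested, 823 were called between 7 d and 24 h, 1346 in edgeR and 1467 in DESeq2. With TMM scaling 155 were higher and 731 lower, against 260 and 563 with library size, and between 7 d and 4 h 631 and 1614 against 924 and 1386. Of the values for named members under alternatives, 267 kept direction and call, 19 lost the call and 0 reversed, all 19 between 7 d and 24 h in Ls3g33940.1, Ls8g86441.1 and Ls7g48860.2. Several settings could not reverse a value, because they left the log2 fold change as it was. These were a looser adjusted p, other filters, the replicate block and leaving out a library of a time not compared. The named members were also picked as the largest calls. With the replicate number as a block, 12, 5 and 9 members were called in the 3 contrasts. The number showed no sign of pairing the samples, since only 6 of 18 same-numbered pairs had deviations correlated above 0.1 (range -0.22 to 0.19). Other pairs ranged from -0.24 to 0.26, and whether equal numbers shared a batch is not known. Members with under 5 CPM at 0 h rest on few reads, and the time of day of sampling is not given in the sources used here.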
